A study of Mus musculus with 4 samples.

Results

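The locus of Ncam1 was described across 2500 kb of chromosome 9, from 48500001 to 51000000 in the mm9 build, which held 125 of the 131957 bins of 20 kb in the deposited insulation table. Hi-C, which maps contacts between stretches of chromosomal DNA by ligation and sequencing, was made with the enzyme DpnII from haematopoietic progenitors of mouse bone marrow, selected by removal of cells with lineage markers. The genotype label was Stag2 wildtype for 2 libraries and Stag2 knock-out for 2. Stag2 encodes a subunit of cohesin. How the gene was deleted, in which cells and from how many animals is not stated in the labels, and the spread between the 2 libraries of a genotype may be technical. The scores hold no value that checks the deletion itself. The depth of sequencing is unknown, and values carry no counting interval. The window was chosen because its compartment eigenvector and insulation score differ between the genotypes, so that every difference between knock-out and wildtype given here is a description without a test.

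Ncam1 encodes the neural cell adhesion molecule, a cell surface protein of the immunoglobulin superfamily that binds its own kind on neighbouring cells. It is best known from neurons, and in human blood its product, CD56, marks natural killer cells. At the scale of chromosomes, chromatin is divided into an active and an inactive compartment, which an eigenvector of the contact map separates by sign. At a finer scale, cohesin extrudes loops until it meets the factor CTCF, which forms domains. An insulation score describes these domains: it is low at positions that few contacts cross, and its local minima mark domain boundaries.

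By the rule that defined the locus, the body of Ncam1 spans about 49.31 to 49.61 Mb, a gene-poor desert lies on its upstream side and a gene-rich flank begins at 50.3 Mb. In 20 kb bins the 4 segments were a downstream flank from 48500001 to 49300000 with 40 bins, the gene body from 49300001 to 49620000 with 16 bins, the upstream desert from 49620001 to 50300000 with 34 bins, and the upstream gene-rich flank from 50300001 to 51000000 with 35 bins. Every one of the 125 bins had a score in all 4 libraries.

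The gene order around Ncam1 was read from the RefSeq annotation of another build, GRCm38.p6, for names only. On the downstream side the nearest protein-coding gene was Ttc12, which encodes a protein needed for ciliary dynein assembly, followed by Ankk1, a kinase gene, and Drd2, which encodes the dopamine D2 receptor. Farther out on that side came Tmprss5, a serine protease gene, Zw10, a kinetochore gene, Usp28, a deubiquitinase gene, the serotonin receptor genes Htr3b and Htr3a, and Zbtb16, which encodes the transcription factor PLZF. On the upstream side 13 annotated entries stood between Ncam1 and the next protein-coding gene, Plet1, and 0 of them were protein-coding. They were 7 long non-coding RNAs, 4 pseudogenes and 2 small nuclear or nucleolar RNAs. Beyond Plet1 followed Pts, of tetrahydrobiopterin synthesis, Bco2, a carotenoid oxygenase gene, the cytokine gene Il18, Tex12, of the synaptonemal complex, Sdhd, a subunit of succinate dehydrogenase, and Timm8b, of mitochondrial import.

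The promoters of the protein-coding genes that bracket Ncam1 and its desert are shown because they are the nearest protein-coding starts listed on both sides. Of Ncam1 and its 27 listed neighbours, 22 were matched by symbol in the RefSeq promoter table of GRCm38.p6, and Ncam1 was not matched. Each sequence runs 5′ to 3′ from 250 bases before to 50 after the gene start, with CpG dinucleotides in capitals. These positions are those of GRCm38.p6 and do not compare with the mm9 positions of the scores.
Ttc12 promoter (GRCm38.p6, chr9:49486176-49486475, minus strand): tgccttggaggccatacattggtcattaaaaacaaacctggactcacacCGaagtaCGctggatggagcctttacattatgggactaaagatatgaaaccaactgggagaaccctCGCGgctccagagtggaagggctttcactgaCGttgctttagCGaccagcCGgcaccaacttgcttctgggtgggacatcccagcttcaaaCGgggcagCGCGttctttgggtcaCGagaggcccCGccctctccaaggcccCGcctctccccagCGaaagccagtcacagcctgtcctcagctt
Plet1 promoter (GRCm38.p6, chr9:50494275-50494574, plus strand): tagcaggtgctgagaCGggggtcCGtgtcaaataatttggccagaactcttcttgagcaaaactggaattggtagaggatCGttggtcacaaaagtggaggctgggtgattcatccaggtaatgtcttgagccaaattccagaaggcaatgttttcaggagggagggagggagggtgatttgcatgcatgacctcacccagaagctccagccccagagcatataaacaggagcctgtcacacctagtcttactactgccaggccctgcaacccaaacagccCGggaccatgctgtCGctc

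The Ttc12 promoter held 14 CpG dinucleotides, and 63.1% of the 27025 genes in the table had fewer. The Plet1 promoter held 5, and 38.3% of genes had fewer. The 6 matched genes of the downstream side had a median of 18.5 CpG dinucleotides, with 1 at Tmprss5, 2 at Htr3b and 35 at Usp28. The 16 matched genes of the upstream side had a median of 15 and ranged from 1, at Il18 and Btg4, to 43 at Sik2, against a median of 7 over all genes of the table. Promoters rich and poor in CpG thus stood on both sides of Ncam1.

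The compartment eigenvector was higher in knock-out across the whole stretch that was negative in wildtype. Within the window, the positive stretches on both sides were nearly level. It came as 1 profile per genotype in 200 kb bins, of which 13 overlap the window. In wildtype, 6 neighbouring bins from 49000001 to 50200000 were negative, with a mean of -0.0274. In knock-out, 3 of these 6 were negative and the mean was -0.00895. The bin from 49400001 to 49600000, which lies wholly within the gene body, went from -0.0267 to 0.00455. The bin before it, from 49200001 to 49400000, holds the downstream end of the gene and went from -0.0185 to 0.00421. Both bins that hold most of Ncam1 therefore changed sign, to small positive values.

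In the desert the bins from 49600001 to 49800000 and from 49800001 to 50000000 had the same wildtype value, -0.0375, and were at -0.0183 and -0.0243 in knock-out. They stayed negative. The last bin of the negative stretch, from 50000001 to 50200000, went from -0.0115 to 0.00180, and so also changed sign. On the downstream side the first bin of the stretch, from 49000001 to 49200000, went from -0.0329 to -0.0216. By sign alone, the wildtype stretch of 6 negative bins was thus divided in knock-out. It became 1 negative bin, 2 positive bins at Ncam1, 2 negative bins in the desert and 1 positive bin before the gene-rich flank. The positive values, 0.00455, 0.00421 and 0.00180, were small. They did not exceed 0.00456, the SD of the difference between genotypes over the bins of chromosome 9. With 1 profile per genotype these values carry no spread, and whether their sign would hold was not tested.

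The 7 bins of the window that were positive in wildtype differed by -0.00302 to 0.00237. On the upstream side the 3 bins from 50200001 to 50800000, of which the first lies partly in the desert, were at 0.0446, 0.0471 and 0.0483 in wildtype and at 0.0432, 0.0460 and 0.0477 in knock-out. The bin from 50800001 to 51000000 went from 0.0378 to 0.0348. On the downstream side the bin from 48800001 to 49000000, next to the negative stretch, was at 0.0175 and 0.0162.

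**Figure D1:**
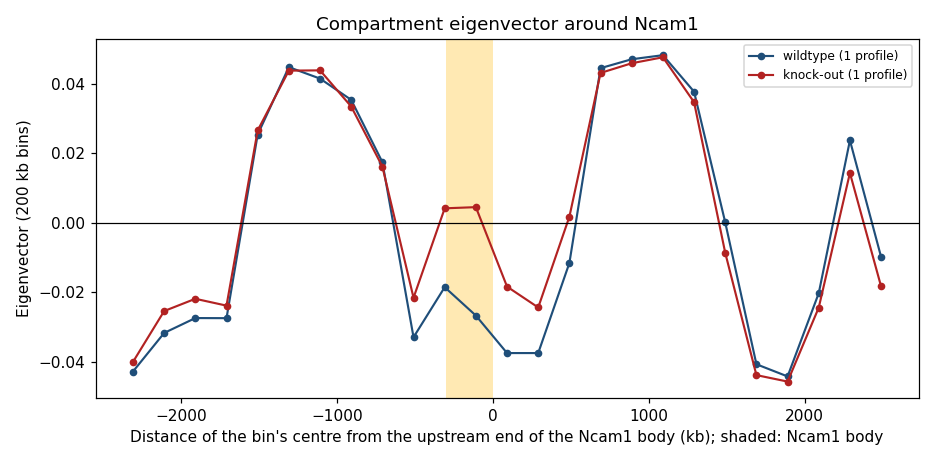
Compartment eigenvector (unitless, 200 kb bins, 1 profile per genotype) against the distance of each bin from the upstream end of the Ncam1 body in kb, with the body shaded. The knock-out line lies above the wildtype line in the 6 negative bins around Ncam1 and crosses 0 in 3 of them, and the lines nearly coincide in the 7 positive bins on both sides.

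The 6 bins of the stretch had the 6 largest increases among the 601 bins of chromosome 9. Their differences ran from 0.0114 to 0.0312, with a mean of 0.0185. Over all 601 bins the median difference was -0.000710 with an SD of 0.00456, and 40.3% of bins had a higher value in knock-out. Of the 306 bins of the chromosome that were negative in wildtype, 36.3% were higher in knock-out. In knock-out, 316 bins of the chromosome were negative. The bin just beyond the window, from 51000001 to 51200000, turned negative, from 0.00015 to -0.00862. The chromosome had 5 bins that turned positive, 3 of them in the stretch around Ncam1. The other two, from 67400001 to 67600000 and from 67800001 to 68000000, differed by 0.00483 and 0.00852. Since the locus was chosen for this change, its rank describes it and supports nothing.

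**Figure D2:**
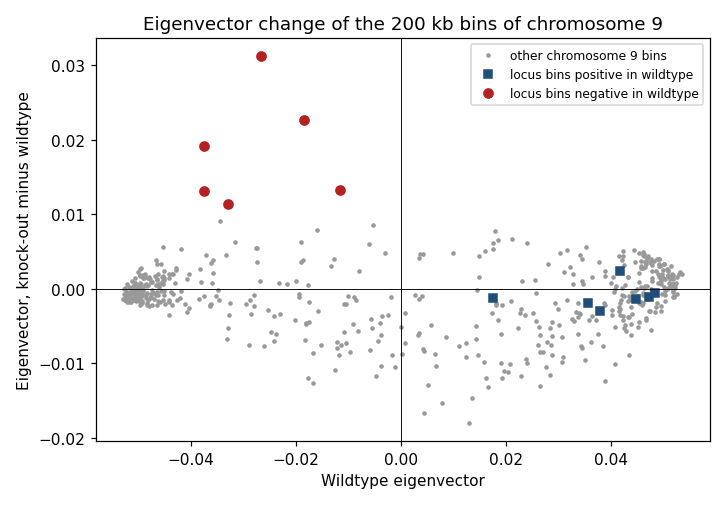
Change of the eigenvector (knock-out minus wildtype, unitless) against its wildtype value for the 601 bins of chromosome 9. The 6 locus bins that were negative in wildtype lie from 0.0114 to 0.0312, above every other bin, and the 7 positive locus bins lie between -0.00302 and 0.00237.

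Among stretches of the same kind the one around Ncam1 also stood at the end of the range. The genome held 510 stretches of at least 3 negative wildtype bins with a positive bin on each side. Since the eigenvector has a different scale on each chromosome, the mean difference of a stretch was divided by the SD of the wildtype eigenvector of its chromosome. The stretch around Ncam1 was higher by 0.454 SD, and 0 of the 510 exceeded it. As the locus was chosen for this change, its place among the 510 is a description and supports nothing. The median was -0.00244 SD and the lowest -0.263 SD. The next was a stretch of chromosome 4 from 54600001 to 55200000, at 0.429 SD. Its 3 bins all turned positive, and its insulation difference was 0.247, against 3 of 6 bins and 0.213 around Ncam1. Number 3, on chromosome 15 from 50800001 to 51600000, had 1 of 4 bins turned and an insulation difference of 0.268. Numbers 4 to 6 had insulation differences of 0.0382, 0.0239 and 0.142. A rise of both measures was thus not particular to Ncam1. Of the 228 stretches of 4 to 8 bins, 21 had a bin that turned positive.

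Insulation scores were higher in both knock-out libraries than in both wildtype libraries from 48660001 to 50360000, through most of the downstream flank, the gene body and the desert. Counted over the window, 93 of the 125 bins had both knock-out libraries above both wildtype libraries, against 31.0% of the bins of the genome. Another 11 bins had both below, against 34.8% of the bins of the genome, and all 11 lay in the gene-rich flank. The limma fit over the genome called 58 of the 125 bins higher, against 11.2% of bins over the genome, and 0 lower, where 11.2% were called lower over the genome. At an unadjusted p below 0.05, 2 bins of the window were lower. The share of the genome at that cut-off was not counted, so unadjusted counts here and below stand without a background. All counts of this paragraph come from the contrast on which the window was chosen, and nothing is read from them. The 58 bins formed 2 unbroken runs, one of 22 bins in the downstream flank from 48800001 to 49240000 and one of 36 bins from 49580001 to 50300000. Between the runs lay most of the gene body.

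**Figure D3:**
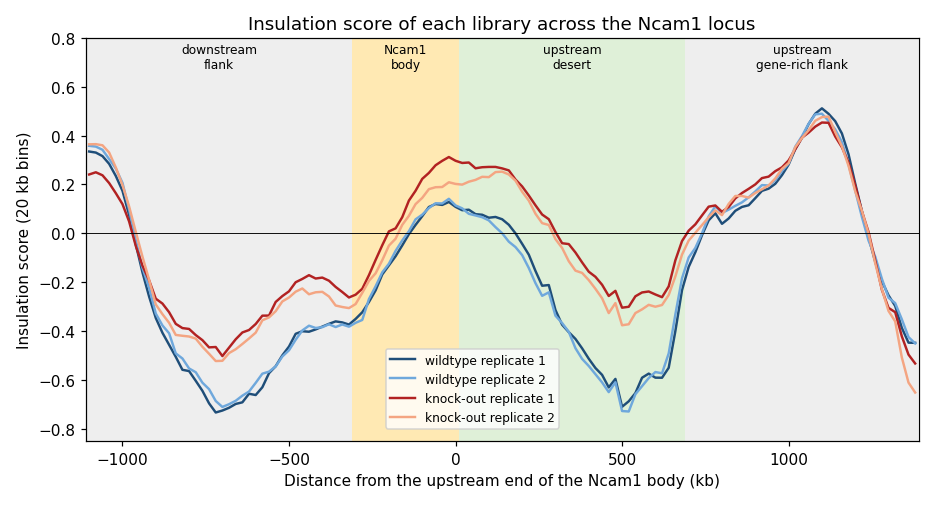
Insulation score (log base unknown, 20 kb bins) of the 4 libraries against the distance from the upstream end of the Ncam1 body in kb, with the 4 segments shaded. The knock-out lines lie above the wildtype lines through the gene body and the desert, where the lowest wildtype bins are at -0.710 and -0.730 and the lowest knock-out bins at -0.305 and -0.377.

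The difference was largest in the upstream desert. Over its 34 bins, wildtype replicates 1 and 2 had mean scores of -0.312 and -0.329, and knock-out replicates 1 and 2 had -0.0158 and -0.0616. Both knock-out libraries were thus higher than both wildtype libraries, in the mean and in each of the 34 bins. This order was present in 31.0% of the bins of the genome. The mean was -0.320 ± 0.0124 for wildtype against -0.0387 ± 0.0324 for knock-out (SD, n = 2). The difference of 0.282 was several times the range within wildtype, 0.0176, and within knock-out, 0.0458. All 34 bins of the desert were called higher, against 11.2% of bins over the genome. The difference grew from 0.145 in the bin next to the gene to 0.378 at 50100001 to 50120000, which only 8 of the 5945 scored bins of chromosome 9 exceeded. It was 0.149 in the last bin before the gene-rich flank.

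In the gene body the scores were also higher in knock-out, by less than in the segments on both sides. The wildtype libraries had means of -0.0595 and -0.0531 over the 16 bins, and the knock-out libraries 0.0780 and 0.0165. The knock-out libraries differed from each other by 0.0615, more than in any other segment. The genotype means were -0.0563 ± 0.00453 and 0.0472 ± 0.0435 (SD, n = 2), a difference of 0.104. Without knock-out replicate 1 it was 0.0728. Each of the 16 bins differed by 0.0820 to 0.138. In each, both knock-out libraries were above both wildtype libraries, against 31.0% of the bins of the genome. The fit called 2 of the 16 bins, those from 49580001 to 49620000 at the upstream end of the gene. Over the genome, 11.2% of bins were called higher. At an unadjusted p below 0.05 there were 13 in the gene body. The genome share at that cut-off was not counted. A fit without 1 library has a genotype with a single library, which is assumed to vary like the other genotype, and the share of bins called over the genome moves with it. The limma count was 9 without the second knock-out library, where 26.6% of the genome was called. It was 0 without the first, where 23.8% was called, and 0 without either wildtype library, where 7.86% and 8.06% were called, with 1 to 4 bins at an unadjusted p below 0.05 in these 3 fits. It was 3 with the title suffix T1 as a replicate block and 0 without the trend on the mean. After a running mean over 51 bins was subtracted from each library, the gene body differed by -0.0798, in the opposite direction.

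The eigenvector and the insulation score thus differed most in different places. The share of 20 kb bins called higher over the genome was 11.2%, and nothing is read from the called counts of this paragraph. The 200 kb bin within the gene body, with the largest eigenvector difference of chromosome 9, had a mean insulation difference of 0.106. Of its 10 insulation bins, 1 was called. The bin from 50000001 to 50200000 had an eigenvector difference of 0.0133, against 0.0312 within the gene body, and an insulation difference of 0.353 with 10 of 10 bins called. On the downstream side the bin from 48800001 to 49000000 had an eigenvector difference of -0.00128 and an insulation difference of 0.205 with 10 of 10 bins called. Across the 13 bins a higher insulation score was present with and without a higher eigenvector.

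The downstream flank, on the side of Ttc12 and Drd2, held a run of called bins of its own, and the difference continued at 0.0820 or more from there through the gene body. The wildtype libraries had means of -0.364 and -0.346 over its 40 bins, and the knock-out libraries -0.220 and -0.229, a difference of 0.131. In the run of 22 called bins, wildtype was at -0.567 and -0.550 and knock-out at -0.333 and -0.370. Its highest difference was 0.256, at 49020001 to 49040000. With either wildtype library left out 11 bins of the flank were called, while the share called over the genome fell to 7.86% and 8.06%. With knock-out replicate 1 left out the flank differed by 0.126, and with knock-out replicate 2 left out by 0.135. In the first 8 bins of the flank, from 48500001 to 48660000, the genotypes overlapped, with differences of -0.0439 to 0.0144.

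In the upstream gene-rich flank, on the side of Plet1, Pts and Il18, the genotypes overlapped in the mean. The wildtype libraries were at 0.101 and 0.108 over the 35 bins and the knock-out libraries at 0.112 and 0.0918, so that both wildtype values lay between the knock-out values. The difference of -0.00288 did not exceed the knock-out range, 0.0198, and its sign changed with the library left out. Limma called 0 of the 35 bins, against 22.4% of bins over the genome in either direction, with 4 at an unadjusted p below 0.05. With knock-out replicate 1 left out the flank differed by -0.0128, and with knock-out replicate 2 left out by 0.00700. Within the flank the difference went from 0.109 in the first bin to -0.143 in the last. Of the 35 bins, 11 had both knock-out libraries above both wildtype libraries, against 31.0% of the bins of the genome. Another 11 had both below, against 34.8%, and nothing is read from these counts. The higher bins included the 3 from 50300001 to 50360000, and the lower ones the 6 from 50880001 to 51000000. Just outside the window the bin from 51000001 to 51020000 differed by -0.164, and at the other end the bins just inside and just outside differed by -0.0439 and -0.0385.

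**Figure D4:**
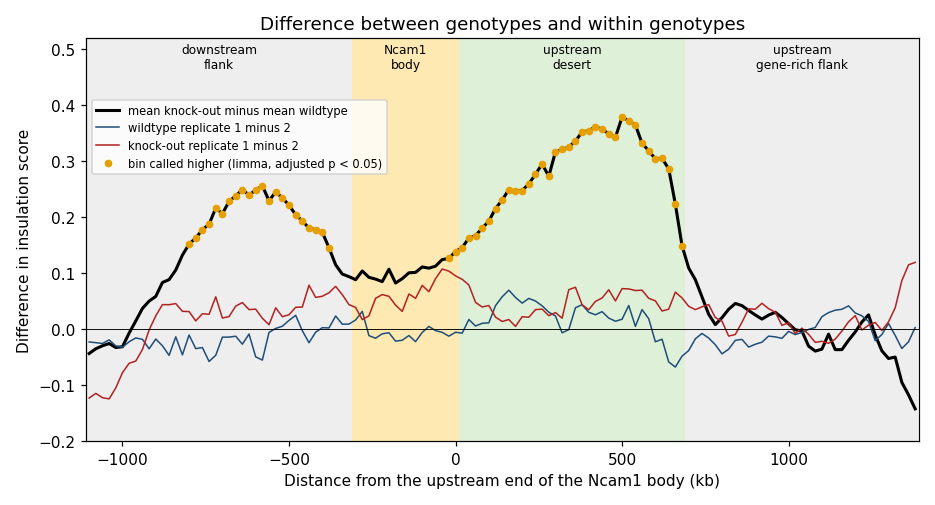
Difference in insulation score between the genotype means (black), with bins that limma called higher in orange, and between the 2 libraries of each genotype (blue and red), against the distance from the upstream end of the Ncam1 body in kb. The genotype difference has 1 peak of 0.256 in the downstream flank and 1 of 0.378 in the desert, with values of 0.0820 to 0.138 in the gene body between them.

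Within each library, the steps of the score between segments were also read, as values without a test. On the upstream side they were smaller in knock-out. The gene-rich flank exceeded the desert by 0.413 and 0.437 in wildtype and by 0.127 and 0.153 in knock-out. The gene body exceeded the desert by 0.252 and 0.276 in wildtype and by 0.0937 and 0.0781 in knock-out. On the other side the gene body exceeded the downstream flank by 0.304 and 0.293 in wildtype and by 0.298 and 0.245 in knock-out, where knock-out replicate 1 lay between the wildtype libraries. Over the 125 bins Pearson's r was 0.997 within wildtype, 0.989 within knock-out and 0.918 to 0.948 across genotypes, as a description of neighbouring bins that share contacts.

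The boundaries of the locus kept their positions in knock-out and were shallower. At the reach of 10 bins used, 1 further minimum appeared at the downstream end of Ncam1. Boundaries were local minima over 10 bins on each side with a depth of at least 0.2, where depth is the mean of the highest score on each side minus the score at the minimum. The mean profile of all 4 libraries had 2 of them, at 48900001 to 48920000 in the downstream flank and at 50100001 to 50120000 in the desert. The same 2 bins were the only boundaries of the wildtype mean.

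The desert boundary was the deeper one. Wildtype replicates 1 and 2 had depths of 0.484 and 0.509 there, and knock-out replicates 1 and 2 had 0.313 and 0.350. Both knock-out libraries were shallower than both wildtype libraries, with means of 0.497 ± 0.0177 and 0.331 ± 0.0263 (SD, n = 2). Among the boundaries of chromosome 9 it was number 35 of 114 by depth in the wildtype mean and number 72 of 112 in the knock-out mean. The minimum of wildtype replicate 2 lay 1 bin farther from the gene, at 50120001 to 50140000.

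The boundary of the downstream flank had depths of 0.320 and 0.307 in wildtype, and of 0.250 and 0.245 in knock-out, again without overlap. Its score was -0.726 and -0.711 in wildtype and -0.503 and -0.522 in knock-out. By single libraries the minimum lay at 48880001 to 48900000 in wildtype replicate 1 and knock-out replicate 2, and 1 bin later in the other two.

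The third minimum, at 49280001 to 49300000, directly before the first bin of the gene body, was a boundary in the knock-out mean and in both knock-out libraries. It was a local minimum in neither wildtype library, where lower bins lay within 10 bins on the downstream side. The knock-out libraries were at -0.263 and -0.306 there, above the wildtype libraries at -0.374 and -0.382. A minimum thus appeared at a position where the score itself was higher, and it depended on the reach of 10 bins. Just beyond that reach, at 49060001 to 49080000, the knock-out libraries were at -0.281 and -0.319, lower than at the minimum. Read at the same bin, the depth was 0.264 and 0.253 in knock-out and 0.211 and 0.225 in wildtype, so that the difference of 0.0410 in depth was small beside that of the desert boundary.

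**Figure D5:**
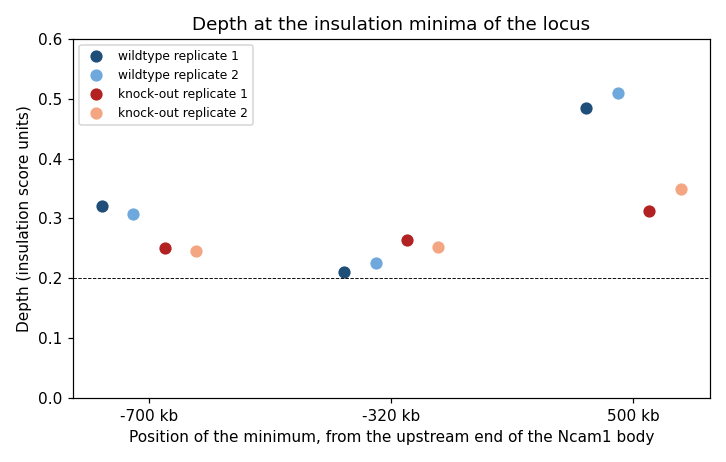
Depth (insulation score units) of the 4 libraries at the 3 minima of the locus, placed by distance from the upstream end of the Ncam1 body; the dashed line marks the minimum depth of 0.2. Knock-out depths lie below wildtype depths at the minima of the downstream flank and the desert and above them at the minimum before the gene. With a reach of 10 bins on each side, that one was a local minimum in the knock-out libraries alone.

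The deposited 10 kb profiles, 1 per genotype, placed these features at finer positions. They may rest on the same libraries and are no independent evidence. The wildtype profile had minima at 48890001 to 48900000 and at 50120001 to 50130000, and the knock-out profile had both of these and another at 49290001 to 49300000. The search reached 200 kb on each side, as at 20 kb. Scores were higher in knock-out in 32 of 32 bins of the gene body and 68 of 68 of the desert, with mean differences of 0.0986 and 0.268. In the downstream flank 65 of 80 bins were higher, and in the gene-rich flank 37 of 70. Neighbouring bins share contacts, and the share over the genome was not counted. The largest difference was 0.340, at 50090001 to 50100000. Levels were not the same as at 20 kb: the desert averaged -0.137 in the wildtype profile and 0.131 in the knock-out profile.

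Over the genome, bins that turned positive had insulation differences from -0.143 to 0.353. Of 91 bins of the genome that turned positive, 84 had insulation scores, among them those of the stretch around Ncam1. The mean score was higher in knock-out in 66 of the 84, with a median difference of 0.0615. The share over all 200 kb bins was not counted, so nothing is read from this count. By insulation difference the bin from 50000001 to 50200000 ranked 1 of 84, and the 2 bins at Ncam1 ranked 32 and 33. A locus of chromosome 11, from 9200001 to 9600000, came close to Ncam1 in its eigenvector. Its bins were higher by 0.539 and 0.592 SD of the chromosome, against 0.557 and 0.766 SD for the 2 bins at Ncam1. Insulation scores there were 0.109 and 0.111 in wildtype, and 0.0294 and 0.0921 in knock-out, a difference of -0.0491. That difference was smaller than the gap between the 2 knock-out libraries there. Of its insulation bins 0 were called, against 22.4% of bins over the genome. The chromosome 11 locus was chosen as one that turns positive without a rise in insulation, so its direction is no result. The contrast with the gene body of Ncam1 was not tested.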

How the data were processed

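The authors deposited insulation scores of the 4 single libraries in 20 kb bins, and 1 score profile per genotype for insulation (10 kb) and for the eigenvector (200 kb), per the file headers. No source used here states the log base or window of the insulation score, the aligner, the read filters or the pooling. The build is mm9, per the submitters' processing notes. Groups came from the genotype label, and replicate numbers only name libraries.

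Genotypes were compared over the 117252 bins scored in all libraries by limma 3.58.1 under R 4.3.3, using lmFit and eBayes with its trend option and a single genotype term. Bins with a Benjamini-Hochberg adjusted p below 0.05, over all bins, were called. The fit was tested on simulated scores. With 2 libraries against 2, an exact permutation test cannot go below p = 0.333, and none was run. The locus, its segments and the named genes (Ncam1 and its neighbours in annotation order) were chosen with earlier results of these data known.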

Additional observations from a re-analysis of the deposited data

How the results depend on the processing

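Leaving out each library in turn gave a difference of 0.259 to 0.305 in the desert, 0.0728 to 0.134 in the gene body and 0.122 to 0.140 in the downstream flank, and 40 to 69 called bins in the window, while the share called over the genome ran from 7.86% to 26.6%. The single library left in a genotype is assumed in these fits to vary like the other genotype. In the gene-rich flank it gave -0.0128 to 0.00700, across 0, with 0.000493 without wildtype replicate 2 and 0.00700 without knock-out replicate 2. With a running mean over 51 bins subtracted, the differences were 0.0760 in the desert, -0.0798 in the gene body, 0.0197 in the downstream flank and -0.0367 in the gene-rich flank, and limma called 0 bins of the window, with 69 at an unadjusted p below 0.05, and 0 of the 117252 bins of the genome. A running mean over 51 bins also holds part of a difference as broad as this one. Its share in these values was not tested. With the chromosome median subtracted, the gene-rich flank differed by 0.0201 and the downstream flank by 0.154, and in the 10 kb profiles the gene-rich flank differed by 0.0121. The cause of these changes of sign was not tested. The downstream flank differed by 0.146 with libraries scaled to the same SD and by 0.142 when shortened by 40 kb at both ends. A minimum depth of 0.3 left 1 boundary, and minima over 5 bins on each side gave 0. In that setting the depth was also taken within 5 bins, while its minimum stayed at 0.2. Both bins of the main setting were still the lowest within 5 bins on each side. The title suffix T1, shared by 1 library of each genotype and of unknown meaning, gave 59 called bins as a replicate block against 58. The labels do not say that it pairs libraries. Sequencing depth is unknown, and n = 2 per genotype limits every value. The 3 changes of sign of the eigenvector were present with the chromosome median subtracted. The medians were -0.00371 in wildtype and -0.00732 in knock-out, so positive values could only rise in that setting. Division by the chromosome SD cannot change a sign and is no check.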
